A study of Mus musculus with 10 samples.

Results

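The laminins and integrins described here are the 38 genes, of 18025 in the deposited table, that encode laminin chains or integrin subunits. They were taken by symbol: Lama, Lamb or Lamc, or Itga or Itgb, followed by a number, together with Itgad, Itgae, Itgal, Itgam, Itgav and Itgax. Itga2b and Itgb2l were kept as subunits, and genes of proteins that only bind integrins, such as Itgb1bp2, were not. There were 11 laminin genes and 27 integrin genes. 28 were counted as muscle members, meaning genes of the fibre and of the vessels, nerve and connective tissue around it, and 10 as leukocyte and platelet members. The classes are not exclusive of other cells: Itgb3, found in platelets as well as endothelium, was counted among the muscle members. Messenger RNA was sequenced from the gastrocnemius, the large calf muscle, of C57BL/6 mice, wild type in genotype and 8 weeks old by the labels. The 5 control libraries were set against 5 libraries labelled COPD (chronic obstructive pulmonary disease), a model that the series title says was induced with cigarette smoke. The labels give no smoking schedule, sex or hour of collection, and do not say whether each library came from its own animal, so the spread behind each p-value may be technical.

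Laminins are cross-shaped heterotrimers of an alpha, a beta and a gamma chain and form the basement membrane that wraps each muscle fibre, capillary and nerve bundle. Integrins are transmembrane heterodimers of an alpha and a beta subunit that bind matrix or counter-receptors outside the cell and the actin cytoskeleton inside it. In adult muscle, laminin with the alpha-2 chain is held at the sarcolemma by the alpha-7 beta-1 integrin and by dystroglycan, and loss of Lama2 or Itga7 causes muscular dystrophy. The beta-2 integrins are restricted to leukocytes, and the integrin made of the products of Itga2b and Itgb3 is the fibrinogen receptor of platelets.

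Library totals ran from 14085854 to 17251034 expected counts, so that 1 CPM (the unit in which counts are given here, scaled between libraries by TMM) stood for 13.5 to 18.1 counts. The 9 fibre markers summed to between 127000 and 220600 CPM in control and between 197430 and 227050 CPM in COPD, with none at 0 in the series. Some facts about single libraries touch the results. Neutrophil granule genes (Mpo, Elane, Camp, Ltf and Ngp) summed to 203 CPM in control replicate 1 and 37.2 CPM in COPD replicate 5, and to between 0.0740 and 3.01 CPM in the other 8 libraries. Transcripts of 3 Y-linked genes were present in all 5 controls and in COPD replicates 2 and 3, and summed to 4, 3 and 3 counts in COPD replicates 1, 4 and 5. Leaving out COPD replicate 5 raised the number of genes called in the whole table from 8 to 410.

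Transcript levels, compared between genes as TPM (a unit that corrects for transcript length and depth), spanned the range from near absence to a mean of 51.2 TPM. The highest were Lamb2, the beta-2 chain of laminin, at 51.2 ± 10.7 TPM, Itgb5, which pairs with alpha-v, at 49.3 ± 10.5, Itga7 at 47.6 ± 17.7 and Itgb1, the common beta subunit, at 47.2 ± 7.37 TPM (SD over all 10 libraries). The ranges of these 4 genes overlapped, so that they have no order among themselves. Itgb1 lay above the next gene, Lamc1 (the gamma-1 chain, 13.8 ± 2.58 TPM), with no overlap, at 32.4 TPM in its lowest library against 17.4 TPM in the highest of Lamc1. No other pair of neighbours in the order of mean TPM was parted in this way. Below Lamc1 came Lama5 at 11.0 ± 2.52 TPM and Itga5, the fibronectin receptor subunit, at 10.6 ± 1.99 TPM. Itga6, Itgb6, Lama4, Itga3, Lama2, Itgb4, Lamb1 and Itga4 had means between 3.08 and 5.67 TPM. The leukocyte subunits Itgb2 and Itgam were at 1.16 ± 0.753 and 0.721 ± 0.611 TPM. Lama1, the embryonic alpha chain, was nearly absent, with 3 counts in all, 1 of them in COPD replicate 2 and 2 in COPD replicate 4.

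**Figure D1:**
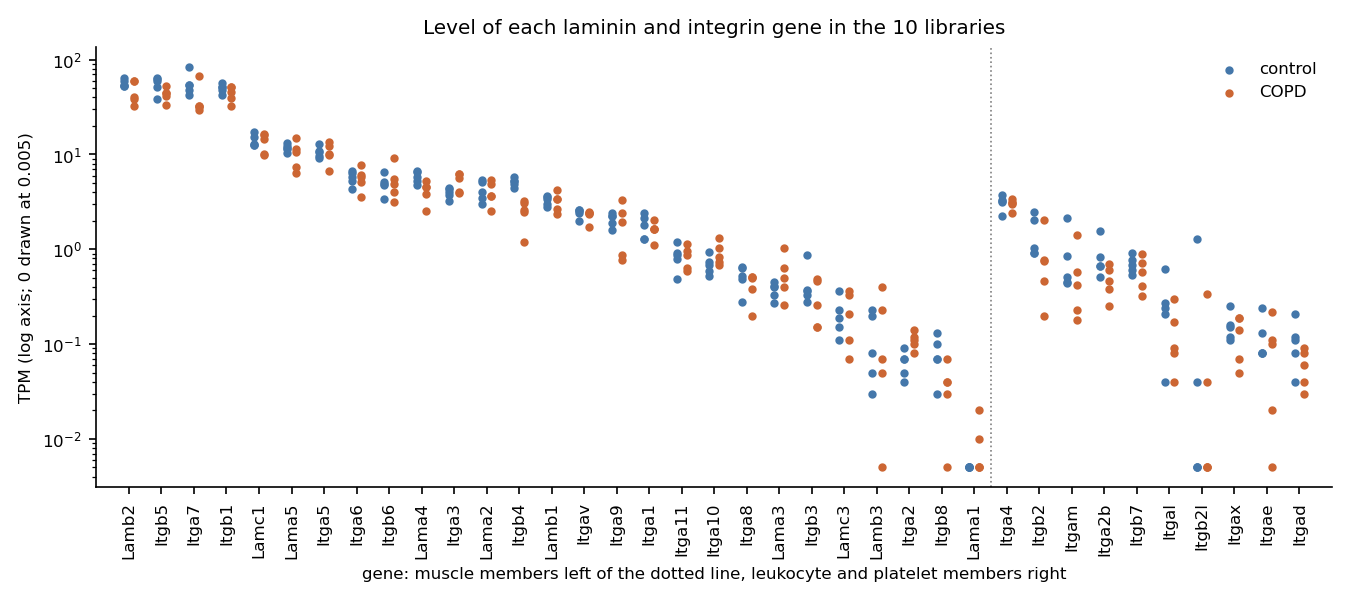
Level of the laminin and integrin genes in TPM (vertical log axis, with values of 0 drawn at 0.005) in the 5 control and 5 COPD libraries, each point a library. Lamb2, Itgb5, Itga7 and Itgb1 form the top group, and Itga4 leads the 10 leukocyte and platelet members to the right of the dotted line.

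The chains that can share a trimer were present in unequal amounts. Among the alpha chains, Lama5 took 53.3 ± 4.20% of the summed TPM in the controls, and 53.3 ± 7.11% in COPD (SD over 5 libraries). Lama4, the alpha chain of capillary basement membrane, took 26.0 ± 2.52% and 22.2 ± 2.99%. Lama2, the alpha chain of the fibre, took 19.0 ± 4.77% and 21.6 ± 3.93%. Its share lay between 14.8 and 25.9% in all 10 libraries, below that of Lama5 in each. Lamb2 made up between 91.2 and 95.0% of beta chain TPM, against 4.93 to 8.21% for Lamb1, and Lamc1 between 90.7 and 96.3% of gamma chain TPM. These are shares of messenger RNA over the whole tissue and give no amounts of protein. Among integrin alpha subunits Itga7 led in every library. Its share was between 56.4 and 70.9% in the controls, between 47.2 and 54.7% in COPD replicates 1 to 4, and 63.5% in COPD replicate 5. Among beta subunits, Itgb1 and Itgb5 together held most of the TPM, with Itgb1 at 42.6 ± 4.24% in control and 45.2 ± 5.99% in COPD, and Itgb5 at 46.3 ± 6.03% and 44.8 ± 6.59%.

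**Figure D2:**
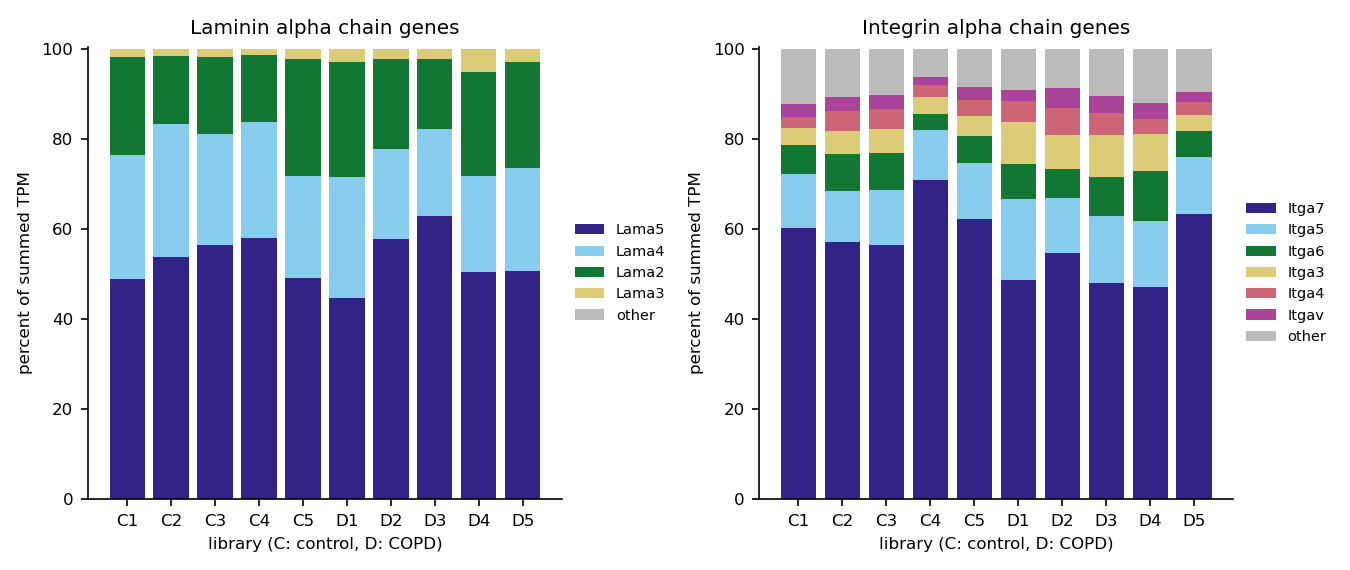
Share of each gene in the summed TPM of the laminin alpha chains (left) and of the integrin alpha subunits (right), in percent, for control (C) and COPD (D) replicates 1 to 5. Lama5 is the largest block on the left in every library, and the Itga7 block on the right is between 47.2 and 54.7% in D1 to D4 and 63.5% in D5.

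Setting the COPD libraries against the controls asks which of these genes differ in the disease model. Of the 38 genes, 30 passed the low-count filter and were tested with all 12697 genes that passed it. The 8 that did not pass, with 3 to 58 counts in all, were Lama1, Lamb3, Itga2, Itgb8, Itgad, Itgae, Itgax and Itgb2l. By the quasi-likelihood test of edgeR, adjusted by Benjamini-Hochberg, 0 of the 30 passed an adjusted p of 0.05, against 0.063% of all genes tested, while 4 had an unadjusted p under 0.05, which is 13.3% of the members against 14.6% of all genes. DESeq2 called 2 of the 30, Itga3 (higher) and Itgb4 (lower), against 3.19% of all genes. 3 of the 4 were higher in COPD (Itga3, Itga10 and Lama3; 10% of the members, against 7.94% of all genes) and 1 was lower (Itgb4; 3.33% against 6.64%). Itgb4 was also the only tested member whose groups did not overlap, 3.33% of the members, against 2.84% of all genes. These shares lie near the background. The median log2 fold change was 0.10 in the 24 tested muscle members and -0.50 in the 6 tested leukocyte and platelet members, beside -0.01 over all genes. The muscle median was 0.04 without COPD replicate 3 or COPD replicate 4, and 0.024 and 0.015 in the fits on the libraries with Y-linked counts and with a term for them.

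**Figure D3:**
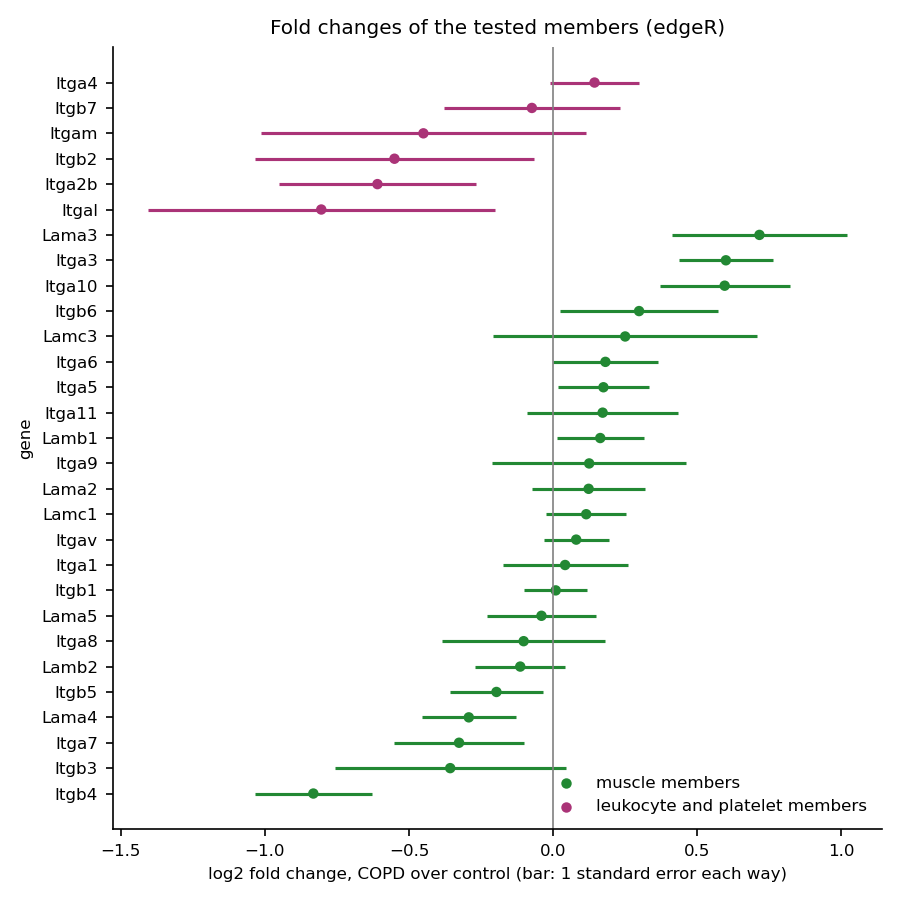
Log2 fold change of COPD over control (horizontal axis) for the tested genes, with a bar of 1 standard error each way. Among the leukocyte and platelet members (top) 5 of 6 lie below 0, so that 16.7% lie above it, against 48% of all genes. The muscle members lie on both sides of 0, from Itgb4 at -0.83 to Lama3 at 0.72.

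Among the laminins, 6 of the 9 tested genes had a log2 fold change above 0 and 3 below (66.7% above 0, against 48% of all genes). Lama3, an alpha chain best known from epithelial basement membrane, was at 1.41, 1.18, 1.79, 1.05 and 1.55 CPM in control replicates 1 to 5, while COPD replicates 1 to 5 had 1.62, 1.26, 1.91, 3.94 and 2.69 CPM. The groups overlapped, and COPD replicates 3, 4 and 5 stood above every control. Its log2 fold change was 0.72 ± 0.30 (SE; unadjusted p = 0.0359, adjusted p = 0.304), and without COPD replicate 4 it was 0.43. It rests on few reads, 286 in all libraries together. The fibre chain Lama2 was at 23.2 ± 5.51 CPM in the controls, against 25.2 ± 5.85 CPM for COPD (SD over 5 libraries; log2 fold change 0.12 ± 0.19, adjusted p = 0.820). Lama4 was at 19.9 ± 3.16 and 16.2 ± 3.34 CPM (-0.29 ± 0.16, adjusted p = 0.441). Lama5 was at 77.2 ± 12.4 and 75.1 ± 22.4 CPM, with the lowest and the highest of its 10 values, 51.9 and 109 CPM, both in COPD.

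Differences in the beta and gamma chains were smaller than the spread between libraries. Lamb2 was at 181 ± 23.3 CPM in the controls, against 167 ± 38.2 CPM for COPD (log2 fold change -0.11 ± 0.16), where COPD replicates 2 and 3 were lowest, at 124 and 138 CPM. Lamb1 was at 10.5 ± 1.69 and 11.8 ± 2.09 CPM (0.16 ± 0.15) and Lamc1 at 61.4 ± 7.47 and 66.5 ± 12.7 CPM (0.11 ± 0.14). The gamma-3 gene Lamc3, at 1.02 ± 0.480 and 1.22 ± 0.728 CPM, had a log2 fold change of 0.25 ± 0.46. All of these adjusted p were at least 0.668 by edgeR. Of the 30 tested members, 17 had the other sign in at least 1 other setting and 13 kept 1 sign throughout; Lama2, Lama5, Lamb1 and Lamc1 were among the 17, so no direction is given for them.

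The laminin-binding integrin subunits went different ways in their values. Itgb4 pairs with alpha-6 and is the long-tailed subunit of hemidesmosomes, found also in Schwann cells, perineurium and endothelium. It was at 19.6, 17.8, 17.4, 16.8 and 17.1 CPM in control replicates 1 to 5, while COPD replicates 1 to 5 had 13.5, 4.96, 9.78, 9.91 and 11.6 CPM. Every COPD library lay below every control, and COPD replicate 2 was lowest. The mean was 17.7 ± 1.12 CPM in control and 9.96 ± 3.18 CPM in COPD (SD over 5 libraries), which is a log2 fold change of -0.83 ± 0.20 (SE) that did not pass over all genes by edgeR (unadjusted p = 0.00137, adjusted p = 0.104) and passed by DESeq2 (adjusted p = 0.00809) and by voom with sample weights (adjusted p = 0.0431, against 1.08% of all genes called). It also passed by edgeR over the libraries with Y-linked counts (-1.26, adjusted p = 0.0220, against 3.7% of all genes) and with a term for those counts (-1.27, adjusted p = 0.0249, against 1.7%). In both of these fits COPD replicates 2 and 3 against the 5 controls set the estimate, so they are not separate results. Over 23 other settings the adjusted p of Itgb4 ran from 0.00809 to 0.218, and its sign was negative in each. The markers of 2 cell types that hold this subunit overlapped between the groups: the 6 Schwann cell markers summed to between 131 and 263 CPM in control and between 112 and 402 CPM in COPD, and the 7 endothelial markers to between 244 and 402 CPM and between 252 and 407 CPM, with none of either list at 0 in the series. The part of cell makeup in the Itgb4 values was not tested, and in whole tissue fewer cells of a type and less RNA per cell cannot be told apart. Its partner Itga6 was at 19.0 ± 3.91 CPM in the controls, against 21.6 ± 5.04 CPM for COPD (log2 fold change 0.18 ± 0.18, adjusted p = 0.696), with the other sign in 5 settings.

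Itga3, the other epithelial and vascular laminin receptor subunit, was at 8.63, 11.5, 12.2, 11.4 and 9.67 CPM in control replicates 1 to 5, while COPD replicates 1 to 5 had 20.5, 13.2, 18.6, 16.9 and 11.8 CPM. COPD replicates 1 to 4 stood above every control, and COPD replicate 5 lay inside the control range. The log2 fold change was 0.60 ± 0.16 (SE; unadjusted p = 0.00319, adjusted p = 0.135). Without COPD replicate 5 it was 0.70 and passed by edgeR (adjusted p = 0.0344, against 3.21% of all genes called in that fit), and it passed by DESeq2 (adjusted p = 0.0329). It was positive in each of 23 other settings.

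Itga7, the alpha subunit of the fibre's own laminin receptor, was at 128, 113, 118, 198 and 124 CPM in control replicates 1 to 5, while COPD replicates 1 to 5 had 97.2, 89.7, 88.1, 87.5 and 180 CPM. COPD replicates 1 to 4 lay together below every control, while COPD replicate 5 stood near control replicate 4, far above the rest. With all libraries the log2 fold change was -0.33 ± 0.22 (SE; adjusted p = 0.542). Without COPD replicate 5 it was -0.59 (unadjusted p = 0.00357) and still did not pass (adjusted p = 0.0714). Without control replicate 4 it was -0.15. The beta-1 subunit with which it pairs, Itgb1, was at 119 ± 7.13 CPM in the controls, against 119 ± 16.1 CPM for COPD, a log2 fold change of 0.01 ± 0.11 (adjusted p = 0.980), the fold change nearest to 0 among the 30 genes. It lay between 95.0 and 134 CPM in all 10 libraries.

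**Figure D4:**
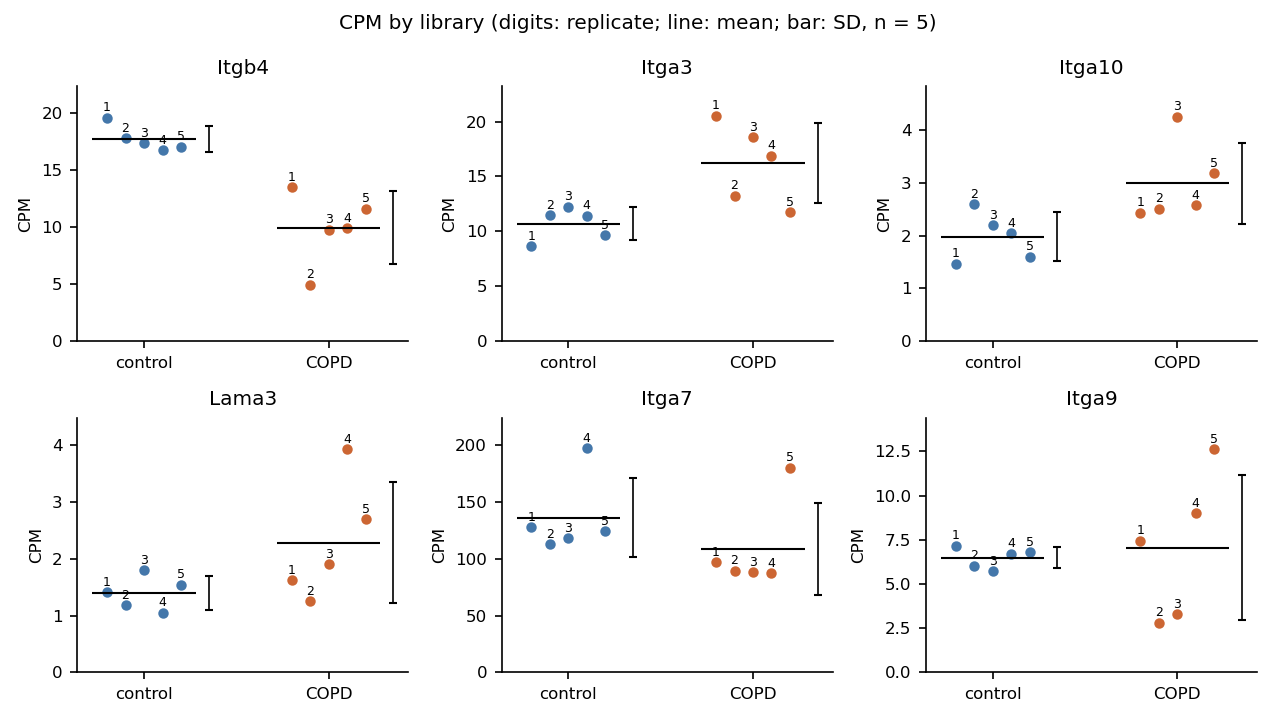
CPM of 6 muscle members in the 5 control and 5 COPD libraries, with digits for replicate numbers, a line at the mean and a bar for the SD. For Itgb4 all COPD points lie below all control points, for Itga7 COPD replicate 5 stands at 180 CPM apart from the other COPD points, and for Itga9 COPD replicates 2 and 3 lie at 2.81 and 3.31 CPM.

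The collagen-binding subunits had fold changes above 0. Itga10, found on chondrocytes and fascia, was at 1.47, 2.60, 2.19, 2.05 and 1.60 CPM in control replicates 1 to 5, while COPD replicates 1 to 5 had 2.44, 2.51, 4.26, 2.58 and 3.18 CPM. The groups overlapped through control replicate 2, and COPD replicate 3 was highest. The log2 fold change was 0.60 ± 0.23 (unadjusted p = 0.0210, adjusted p = 0.259). Itga1, of endothelium and smooth muscle, was at 6.10 ± 1.93 and 6.26 ± 1.07 CPM (log2 fold change 0.04 ± 0.22), and Itga11, of fibroblasts, at 2.39 ± 0.739 and 2.70 ± 0.709 CPM (0.17 ± 0.26). Itga1 and Itga11 were among those with either sign. Itga2 did not pass the filter and had 3 to 6 counts per control library and 5 to 10 per COPD library. In CPM its groups did not overlap, at 0.169 to 0.332 in control and 0.370 to 0.612 in COPD. With no low-count filter, 2.32% of all genes did not overlap, and these values rest on few counts. The 5 tendon markers (Scx, Tnmd, Mkx, Fmod and Thbs4) summed to 71.6 to 194 CPM in COPD and 34.0 to 82.2 CPM in control. Thbs4 and Fmod made up most of these sums (control means 28.6 and 19.8 CPM, COPD means 64.9 and 42.2 CPM). Of the 4 markers that could be tested, Thbs4, Fmod and Tnmd had log2 fold changes of 1.18, 1.08 and 2.01. Scx went the other way (-0.25 ± 0.19), so the sums do not show a shared rise of the list. The part of these markers in the Itga10 and Itga11 values was not tested.

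Among the other alpha subunits, those that bind fibronectin, vitronectin or tenascin, the COPD values of Itga9 were the most spread relative to their mean. Itga9 was at 7.17, 6.04, 5.72, 6.71 and 6.80 CPM in control replicates 1 to 5, while COPD replicates 1 to 5 had 7.46, 2.81, 3.31, 9.02 and 12.6 CPM. COPD replicates 2 and 3 lay below every control and COPD replicates 1, 4 and 5 above every control. The first pair are the COPD libraries with Y-linked counts, and the other 3 are those without. Over all libraries the log2 fold change was 0.13 ± 0.34 (adjusted p = 0.902). Over the libraries with Y-linked counts, COPD replicates 2 and 3 against the 5 controls, it was -1.075 (adjusted p = 0.0164, against 3.7% of all genes called), and with a term for Y-linked counts in the fit it was -1.083 (adjusted p = 0.0404, against 1.7%). All 5 controls had Y-linked counts, so the 3 COPD libraries without them have no controls of their own kind. Itga5 was at 26.5 ± 3.16 and 29.9 ± 7.11 CPM (log2 fold change 0.17 ± 0.16), Itga8 at 1.58 ± 0.463 and 1.46 ± 0.402 CPM (-0.10 ± 0.28) and Itgav at 10.9 ± 0.810 and 11.5 ± 1.32 CPM (0.08 ± 0.11), all with adjusted p of at least 0.664.

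The beta subunits that pair with alpha-v did not pass either. Itgb5 was at 56.0, 90.9, 86.6, 89.2 and 92.5 CPM in control replicates 1 to 5, while COPD replicates 1 to 5 had 75.8, 79.3, 65.2, 87.9 and 54.3 CPM (log2 fold change -0.20 ± 0.16, adjusted p = 0.620). Control replicate 1 and COPD replicate 5, the libraries with neutrophil granule transcripts, were its lowest in each group. Itgb6, which activates latent TGF-beta, was at 13.3 ± 3.98 and 16.3 ± 7.04 CPM (0.30 ± 0.27), with 27.7 CPM in COPD replicate 3, and without that library its log2 fold change was 0.03. Itgb3, of platelets and endothelium, was at 2.77 CPM in control replicate 1 and between 0.591 and 1.76 CPM elsewhere (-0.36 ± 0.40, and 0.02 without that library). Itgb8 had 17 counts in all and was not tested.

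Several leukocyte members were highest in the same pair of libraries. Itgam, which with beta-2 forms the Mac-1 receptor of neutrophils and macrophages, was at 5.59 CPM in control replicate 1 and 4.04 CPM in COPD replicate 5, and between 0.592 and 2.19 CPM in the other 8 libraries. Itgb2, the common subunit of leukocyte integrins, was highest in the same libraries at 3.72 and 3.55 CPM, followed by control replicate 2 at 3.02 CPM, and lay between 0.370 and 1.61 CPM in the other 7. Itgb2l, a close relative of Itgb2 in the mouse, had 35 counts in control replicate 1, 9 in COPD replicate 5, 1 each in control replicate 2 and COPD replicate 4, and 0 in the other 6. Reads shared by Itgb2 and Itgb2l could have been split between them in counting. Itgal, the alpha subunit of the lymphocyte receptor LFA-1, was at 1.81 CPM in control replicate 1 and 0.980 CPM in COPD replicate 5, and between 0.110 and 0.798 CPM elsewhere. Summed over Itgb2 and its partners Itgal, Itgam, Itgax and Itgad, the level was 11.7 CPM in control replicate 1, 9.12 CPM in COPD replicate 5 and 1.55 to 6.51 CPM in the others.

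The sums of the neutrophil markers and of the markers of all leukocytes were highest in the same pair of libraries, and that of the macrophage markers was not. The 10 neutrophil markers summed to 358 CPM in control replicate 1, 90.1 CPM in COPD replicate 5 and 5.40 to 15.6 CPM in the other 8, where the granule genes Mpo and Elane were at or near 0. The 6 markers of all leukocytes summed to 13.0 to 39.8 CPM in control and 7.17 to 29.1 CPM in COPD, again highest in control replicate 1 and COPD replicate 5. Not every marker of this list followed its sum. Ptprc was at 2.37 CPM in control replicate 1, below control replicate 2 at 2.78 CPM, and at 3.12 CPM in COPD replicate 5. The 11 measured macrophage markers summed to 99.0 CPM in control replicate 1, below control replicates 2, 3 and 4 at 124, 105 and 130 CPM. They were at 73.1 CPM in control replicate 5, between 38.1 and 81.5 CPM over COPD replicates 1 to 4, and reached 117 CPM in COPD replicate 5. No marker of these 3 lists was at 0 in the whole series. Of 10 tested macrophage markers, 9 had a log2 fold change below 0 (median -0.61; 10% above 0, against 48% of all genes). At an unadjusted p under 0.05 by edgeR, 4 of them were lower (40%, against 6.64% of all genes), and 0 passed after adjustment. All 6 markers of all leukocytes were below 0 (median -0.60), 0 of them with an unadjusted p under 0.05. The part of these cells in the values of the leukocyte members was not tested. The log2 fold changes of Itgam, Itgb2 and Itgal were -0.45 ± 0.56, -0.55 ± 0.49 and -0.80 ± 0.60, with adjusted p of 0.765, 0.654 and 0.581. Without control replicate 1 they were 0.18, -0.29 and -0.28, and with a term for Y-linked counts -1.32, -1.92 and -1.45; 0 of these passed. The median of the tested leukocyte and platelet members was -0.20 without control replicate 1, -0.27 without COPD replicate 2 and -0.93 without COPD replicate 5. Without both control replicate 1 and COPD replicate 5, a setting chosen after the data were seen, it was -0.44 over 5 tested members. Of these 5, 0 passed by edgeR, against 1.75% of all genes. At an unadjusted p under 0.05 there were also 0, against 18.9% of all genes, a share too small to tell apart from 0 in 5 members.

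Itga2b, the platelet and megakaryocyte subunit, was at 2.93, 1.54, 1.46, 1.28 and 0.939 CPM in control replicates 1 to 5, while COPD replicates 1 to 5 had 1.11, 0.592, 1.32, 0.814 and 1.47 CPM. The groups overlapped, and control replicate 1 stood highest, as it did for Itgb3. The 7 platelet markers summed to 17.6 CPM in control replicate 1 and to between 10.4 and 13.5 CPM in the other libraries, with none at 0 in the series. Within that list Ppbp was highest in control replicate 1, whereas Pf4 was lowest of the controls there, at 2.93 CPM against 3.04 to 4.77 CPM, and Gp1ba lay between 7.15 and 8.31 CPM in all 10 libraries. The part of platelets in the Itga2b values was not tested. The log2 fold change of Itga2b was -0.61 ± 0.34 (adjusted p = 0.441), and -0.285 without control replicate 1.

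Itga4 and Itgb7 did not share this pattern. Itga4, whose product pairs with beta-1 or beta-7 and binds the endothelial ligand Vcam1, was the most abundant leukocyte member per length. It was at 12.3, 20.4, 20.6, 17.4 and 17.3 CPM in control replicates 1 to 5, while COPD replicates 1 to 5 had 20.7, 22.9, 19.8, 15.0 and 18.8 CPM (log2 fold change 0.14 ± 0.15, adjusted p = 0.715). Control replicate 1, highest for the beta-2 integrins, was its lowest library, and COPD replicate 2, lowest for Itgb2, was its highest. Itgb7, the gut-homing beta subunit, was at 1.07 ± 0.253 and 1.02 ± 0.412 CPM (-0.07 ± 0.31). Itgad, Itgae and Itgax had 32, 41 and 55 counts in all and were not tested. Exons of Itgad overlap those of the muscle gene Cox6a2 on the opposite strand (GENCODE M21), and no source used here says whether counting used strand, so its few reads are uncertain.

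**Figure D5:**
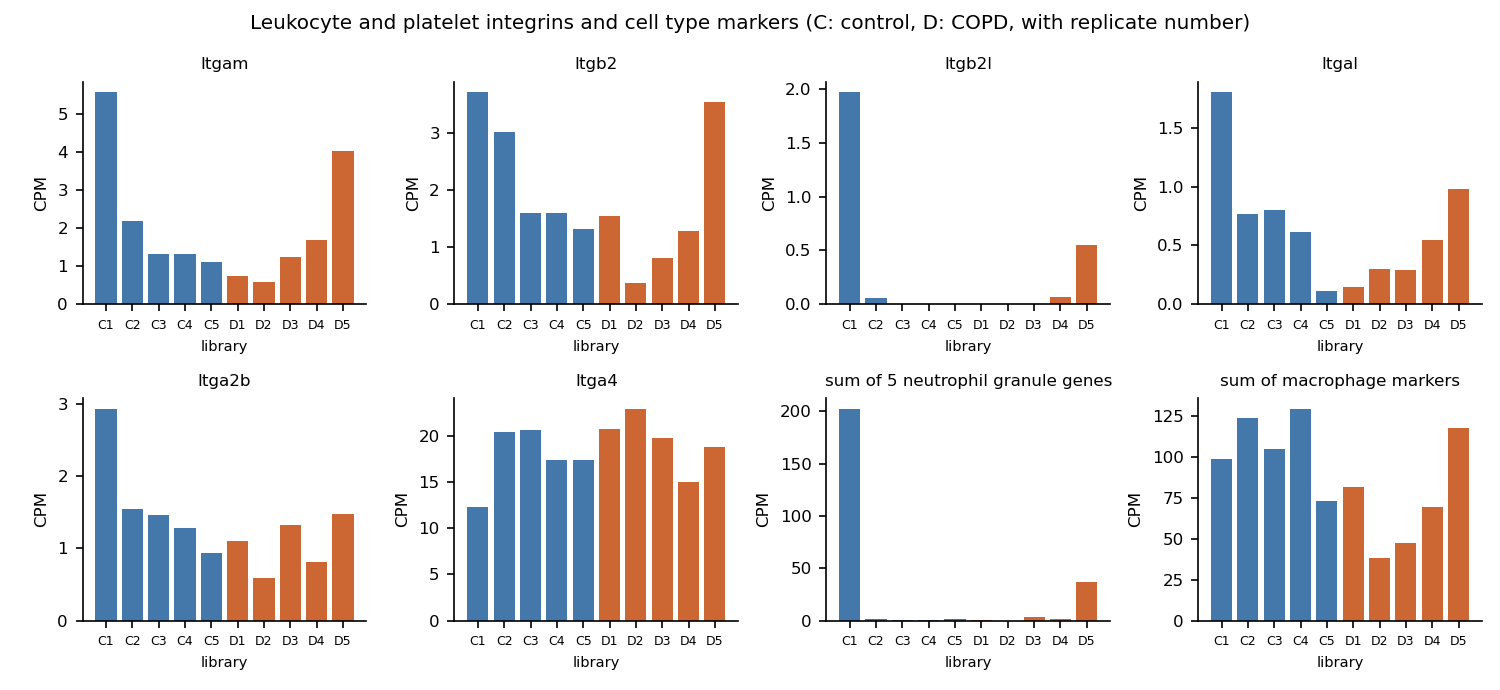
CPM of 6 leukocyte and platelet integrin genes and the summed CPM of 5 neutrophil granule genes and 11 macrophage markers, in control (C) and COPD (D) replicates 1 to 5. Itgam, Itgb2, Itgb2l and Itgal are highest in C1 and D5, where the granule genes sum to 203 and 37.2 CPM, and Itga4 is lowest in C1.

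The promoters of 3 members that were highest in control replicate 1 (Itgam, Itgb2l and Itga2b) are shown with that of Lama2, the fibre's laminin alpha chain, for comparison. Each is the 250 bases before the RefSeq transcription start on build GRCm38.p6, 5′ to 3′ on the gene's strand, which is not the build of the deposited files. Capitals mark GAGGAA or its reverse complement TTCCTC, the core that myeloid factors of the Ets family such as PU.1 bind.
They lie at chr7:128062390-128062639 (+ strand) for Itgam, chr16:96443615-96443864 (- strand) for Itgb2l, chr11:102469884-102470133 (- strand) for Itga2b and chr10:27616943-27617192 (- strand) for Lama2.
Itgam: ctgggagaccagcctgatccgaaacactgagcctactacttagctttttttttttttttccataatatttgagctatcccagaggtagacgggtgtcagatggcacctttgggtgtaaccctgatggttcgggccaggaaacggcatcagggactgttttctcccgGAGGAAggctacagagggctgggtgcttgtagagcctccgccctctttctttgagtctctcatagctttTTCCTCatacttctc
Itgb2l: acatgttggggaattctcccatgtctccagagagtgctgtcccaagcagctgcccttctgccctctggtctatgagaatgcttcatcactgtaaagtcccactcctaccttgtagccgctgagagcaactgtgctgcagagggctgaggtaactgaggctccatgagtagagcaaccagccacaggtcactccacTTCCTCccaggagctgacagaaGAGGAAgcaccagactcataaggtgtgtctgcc
Itga2b: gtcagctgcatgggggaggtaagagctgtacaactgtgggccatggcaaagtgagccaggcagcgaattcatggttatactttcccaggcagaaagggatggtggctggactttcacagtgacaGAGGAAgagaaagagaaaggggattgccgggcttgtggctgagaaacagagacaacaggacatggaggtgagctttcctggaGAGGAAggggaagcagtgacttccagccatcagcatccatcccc
Lama2: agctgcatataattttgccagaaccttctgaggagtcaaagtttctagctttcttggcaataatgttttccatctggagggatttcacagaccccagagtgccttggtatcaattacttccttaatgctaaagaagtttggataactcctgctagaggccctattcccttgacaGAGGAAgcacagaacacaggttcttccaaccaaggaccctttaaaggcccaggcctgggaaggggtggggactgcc
Counted over both strands, Itgam, Itgb2l and Itga2b each had 2 matches, and Lama2 had 1. The muscle member Itgav, whose promoter is not printed, also had 2. Promoters were at hand for 24 of the 38 members, 27 starts in all, and 14 of these 27 held at least 1 match, against 23.3% of all 32851 promoters of that length. Those of the muscle members Lamb2, Lama5, Itgb1 and Itga5 were among the 14. A match is a run of letters and not a measured binding site.

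The other genes of the pathway were taken from 4 lists, of which 0 genes passed over all genes by edgeR, against 0.063% of all genes. At an unadjusted p below 0.05, 7.94% of all genes were higher and 6.64% lower, beside which the shares of each list are given. The dystroglycan complex and sarcolemma, the other laminin anchor of the fibre, had 22 tested genes. Of these, 0 had a higher and 1 a lower level with unadjusted p below 0.05 (0% and 4.55%). A fold change below 0 was seen in 15 (median -0.13), and 31.8% were above 0, against 48% of all genes. The lower one was sarcospan, Sspn, at 52.4 ± 8.54 CPM in the controls, against 41.2 ± 4.24 CPM for COPD (SD over 5 libraries; log2 fold change -0.35 ± 0.13, adjusted p = 0.237). Dystrophin, Dmd, was at 77.1 ± 16.6 and 56.6 ± 17.1 CPM (-0.44 ± 0.20, adjusted p = 0.344), and Sgce at 8.45 ± 1.01 and 7.05 ± 1.00 CPM (-0.26 ± 0.14, adjusted p = 0.417).

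Of 19 tested partners of laminin in the basement membrane, 4 had a higher and 1 a lower level with unadjusted p below 0.05 (21.1% and 5.26%, against 7.94% and 6.64% of all genes; median 0.05). The paired type IV collagen genes had the smallest p. Col4a2 was at 71.7, 74.3, 107, 78.3 and 69.9 CPM in control replicates 1 to 5, while COPD replicates 1 to 5 had 118, 130, 147, 226 and 116 CPM, with no overlap (log2 fold change 0.88 ± 0.19, adjusted p = 0.0887). Col4a1 was at 85.2 ± 21.3 and 168 ± 67.5 CPM (0.98 ± 0.24, adjusted p = 0.107). Exons of these 2 genes overlap each other on opposite strands, so that their counts may share reads. Papln, a secreted matrix protein, was near 1 CPM in control (log2 fold change 1.22 ± 0.45, adjusted p = 0.248). The laminin genes that share the basement membrane with type IV collagen had log2 fold changes from -0.29 (Lama4) to 0.72 (Lama3).

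Of 29 tested adaptors that link integrin tails to actin, 5 had a higher and 0 a lower level with unadjusted p below 0.05 (17.2% and 0%, against 7.94% and 6.64% of all genes), with a median of 0.02. Itgb1bp2, which encodes melusin, a muscle protein that binds the beta-1 tail, was between 66.0 and 125 CPM in the controls and between 136 and 155 CPM in the COPD libraries. The groups did not overlap, and the COPD libraries lay within a narrower range than the controls (log2 fold change 0.66 ± 0.18, adjusted p = 0.137). Vinculin, Vcl, was at 58.7 ± 3.76 and 80.1 ± 17.2 CPM (0.45 ± 0.14, adjusted p = 0.178) and the tensin gene Tns3 at 7.31 ± 1.14 and 9.67 ± 1.94 CPM (0.40 ± 0.16, adjusted p = 0.268). Exons of Vcl overlap those of Ap3m1 on the opposite strand.

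Of 19 tested other ligands of integrins, 4 had a higher and 1 a lower level with unadjusted p below 0.05 (again 21.1% and 5.26%, against 7.94% and 6.64%; median 0.33). Thbs4, a matrix glycoprotein of tendon and muscle, was at 28.6 ± 6.94 CPM in the controls, against 64.9 ± 18.2 CPM for COPD, with no overlap (log2 fold change 1.18 ± 0.22, adjusted p = 0.0627), and it is also a member of the tendon list above. The fibrillar collagen gene Col3a1 was at 34.3 ± 15.1 and 72.7 ± 30.0 CPM (1.08 ± 0.35, adjusted p = 0.197). Vcam1, the ligand of the Itga4 product, was between 2.22 and 4.79 CPM in the controls and between 1.69 and 2.44 CPM in the COPD libraries (-0.86 ± 0.24, adjusted p = 0.139), the groups overlapping through control replicate 4.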

How the data were processed

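The values tested are expected counts, estimated by the authors for 18025 gene symbols and deposited unscaled (30.7% were not whole). TPM of these genes were computed by the authors before deposit, scaled for transcript length and depth as the unit implies. RSEM 1.2.12, HISAT2 2.0.4, DESeq2 1.4.5, Bowtie2 2.2.5 and build mm9 appear in the submitters' processing notes without a role or order. Groups and replicate numbers came from the titles.

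Expected counts were rounded, filtered with filterByExpr (12697 genes kept), scaled by TMM and compared with edgeR 4.0.16 (glmQLFit, glmQLFTest; R 4.3.3) over all genes, with Benjamini-Hochberg adjustment at 0.05. A standard error is the log2 fold change divided by the square root of F. CPM are TMM-scaled. Alternatives used DESeq2 1.42.0, limma 3.58.1, other scalings and filters, log2(TPM + 1) and log2(TPM + 0.1), a replicate block and fewer libraries. The procedure was tested on simulated data. Libraries differed by a chi-square per degree of freedom of at least 17.6, so none was taken as a repeat. Replicate numbers did not pair the samples. The text names the members, except 1 that is counted in the totals and not reported here, and from each pathway list the 3 genes with the smallest p. The members and lists were chosen with earlier results of these data known. Promoter sequences are from RefSeq (GRCm38.p6), exon overlaps from GENCODE M21, and figures were drawn with matplotlib 3.10.9. Intervals and errors do not cover differences in how the tissue was taken.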

Additional observations from a re-analysis of the deposited data

Results flagged for a closer look

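In 5 of 60 groups of 5 libraries (30 tested members, each in control and COPD), 1 library stood farther from the others than Dixon's test allows at its 95% level, where chance gives about 3. Itga7 was at 198 CPM in control replicate 4, with the next control at 128 CPM, and at 180 CPM in COPD replicate 5, with the next COPD library at 97.2 CPM. Itgam was at 5.59 CPM in control replicate 1, next to 2.19 CPM, and Itgb3 at 2.77 CPM in the same library, next to 1.33 CPM. Itgb5 was at 56.0 CPM in control replicate 1, below the next control at 86.6 CPM.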

How the results depend on the processing

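Of the 30 tested members, 0 passed by edgeR over all genes with all libraries, with other scalings or with no low-count filter, and 0 by limma on the TPM scales. The exceptions were DESeq2 (2), voom with sample weights (1), the libraries with Y-linked counts (2) and the term for Y-linked counts (2); leaving out each library gave 0 to 1. The count of all genes called was 8 and became 17 with no filter, 405 by DESeq2, 137 by voom, 44 and 36 on log2(TPM + 1) and log2(TPM + 0.1), 2 on log2(TPM + 1) with no filter, 488 over libraries with Y-linked counts, 216 with the term for them, 221 without control replicate 1 and COPD replicate 5, and 0 to 410 with each library left out. The replicate block gave 7 genes and 0 members, and same-numbered libraries did not deviate together (correlations from -0.14 to 0.0413). Itga9, at 0.13 and with the other sign in 10 of 23 settings, became -1.075 over libraries with Y-linked counts and -1.083 with the term (COPD replicates 2 and 3 set the estimate in each); the cause was not tested. The median of the muscle members became -0.102 on log2(TPM + 0.1), where that of all genes was -0.21. With library size alone it was -0.054, where all genes had a median of -0.17. The median of the leukocyte and platelet members became -1.034 and -1.042 in the fits on Y-linked counts. Members near 1 CPM rest on 13.5 to 18.1 counts per library, which limits their precision.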

Other observations

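Summed over all subunits, integrin alpha genes were at 90.5 ± 16.2 TPM in control and 72.7 ± 19.8 TPM in COPD, and integrin beta genes at 118 ± 10.9 and 97.2 ± 10.6 TPM (SD over 5 libraries). TPM shift with the most abundant transcripts: the median of all genes was -0.18 on log2(TPM + 1). Lamb2 and Itgb1bp2 were each widely spread in 1 group: Lamb2 from 124 to 208 CPM in COPD and Itgb1bp2 from 66.0 to 125 CPM in control.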
